A study of Homo sapiens with 6 samples.

Results

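The genes for translation initiation factors were followed in PC-3 cells, an established human prostate cancer line, that carried an inducible vector with or without the RNA-binding protein tristetraprolin (TTP). TTP binds AU-rich sequences in the 3′UTR of mRNAs and delivers these mRNAs to decay. Every gene symbol made of EIF and a digit from 1 to 6 was taken where its locus carried a coding RefSeq name, which gave 59 of the 18984 coding gene symbols in the table. Where a symbol stood at more than 1 locus, the one with the most RefSeq names was taken, and among equals the one with the higher level. All cells carried the rtTA2 transactivator, which needs doxycycline (Dox) to switch on the promoter of the second retrovirus, and all were treated with 300 ng/ml Dox for 4 hours. The tdTom group (3 samples) carried pRetroX-Tight-pPGK-tdTomato and the TTP-tdTom group (3 samples) carried pRetroX-Tight-TTP-pPGK-tdTomato, and both were selected by G418 and sorted for tdTomato. The groups are separate infected and sorted populations of 1 cell line, so that other differences between these populations and the effect of TTP cannot be told apart.

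Translation of most mRNAs starts at the cap. The EIF4F complex binds the cap and unwinds the leader, EIF2 brings the initiator tRNA to the small ribosomal subunit, and EIF3, EIF1 and EIF1A hold the scanning subunit open until the start codon is found. EIF5 and EIF5B then release the factors and join the large subunit, while EIF2B reloads EIF2 with GTP. Cells adjust the process through kinases that phosphorylate EIF2S1 and through EIF4E binding proteins that withhold the cap-binding protein, and several of these genes are studied in cancer for this reason.

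The authors' table holds 1 FPKM value per group (fragments per length of transcript and per number of mapped fragments, over the 3 samples together). A difference is therefore given as the ratio of the group values, TTP-tdTom over tdTom, on the log2 scale. These values carry no spread between replicates, and the authors' own test statistics in the same table were not used. No test was run here, the depth behind a value is unknown, and no difference below is set against replicate error. FPKM is scaled to length, which allows a rough comparison of levels between genes. Loci that carry other genes and near-identical copies limit it. The keratin genes KRT8 and KRT18 stood at 20.9 and 98.2 FPKM in the tdTom group. ZFP36, which encodes TTP, was listed at 5.56 FPKM in the tdTom group and 5.54 FPKM in the TTP-tdTom group. Its own locus thus does not mark the group labelled TTP-tdTom. In the paper, immunoblots showed TTP protein in the TTP-tdTom cells after the same length of Dox treatment as used for sequencing. The paper also reports induced TTP mRNA by qRT-PCR in these cells after longer Dox treatment. Why the ZFP36 value did not differ between the groups was not tested. Across the 11616 coding symbols with a mean of at least 1 FPKM over the groups, the median log2 ratio was -0.24, and ratios are also given relative to this median where it matters.

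Of the 59 initiation factor genes, 57 had a mean of at least 1 FPKM and an FPKM above 0 in both groups. EIF1AY, the Y-linked copy of EIF1AX, was listed at 0 in both groups. EIF4E1B, an oocyte relative of EIF4E, was listed at 0.65 FPKM without TTP-tdTom and at 0 with it, and a second entry at the same coordinates at 0.099 FPKM and 0.208 FPKM. Of the 57, 10 were at least 1.5-fold lower in the TTP-tdTom group, which is 17.5%, and 0 were at least 1.5-fold higher. Over all 11616 coding symbols these shares were 22.9% lower and 1.74% higher, so that the share of initiation factors past the fold was no higher than that of coding genes at large. At a fold of 2 to the lower side the counts were 3 of 57 against 8.26% of all coding symbols, and at a log2 difference of 0.32 they were 22 against 40.6%. To the higher side no member passed either, against 0.775% and 4.3% of all coding symbols. After centring on the median of all coding symbols, 5 members were at least 1.5-fold lower (EIF5A2, EIF2A, EIF1AX, EIF4A2 and EIF4E) against 13.2%, and 0 were higher against 3.84%. Their median log2 ratio was -0.24, equal at this precision to that of all coding symbols, and 28 of the 57 lay below the median of all. The 57 ratios ran from -1.25 for EIF5A2 to 0.24 for EIF5AL1, and 52 of them were below 0. The centre of the family thus lay at that of the transcriptome, and 10 members stood at its low end. Of these 10, EIF3C and EIF3CL share 1 locus and its value.

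**Figure D1:**
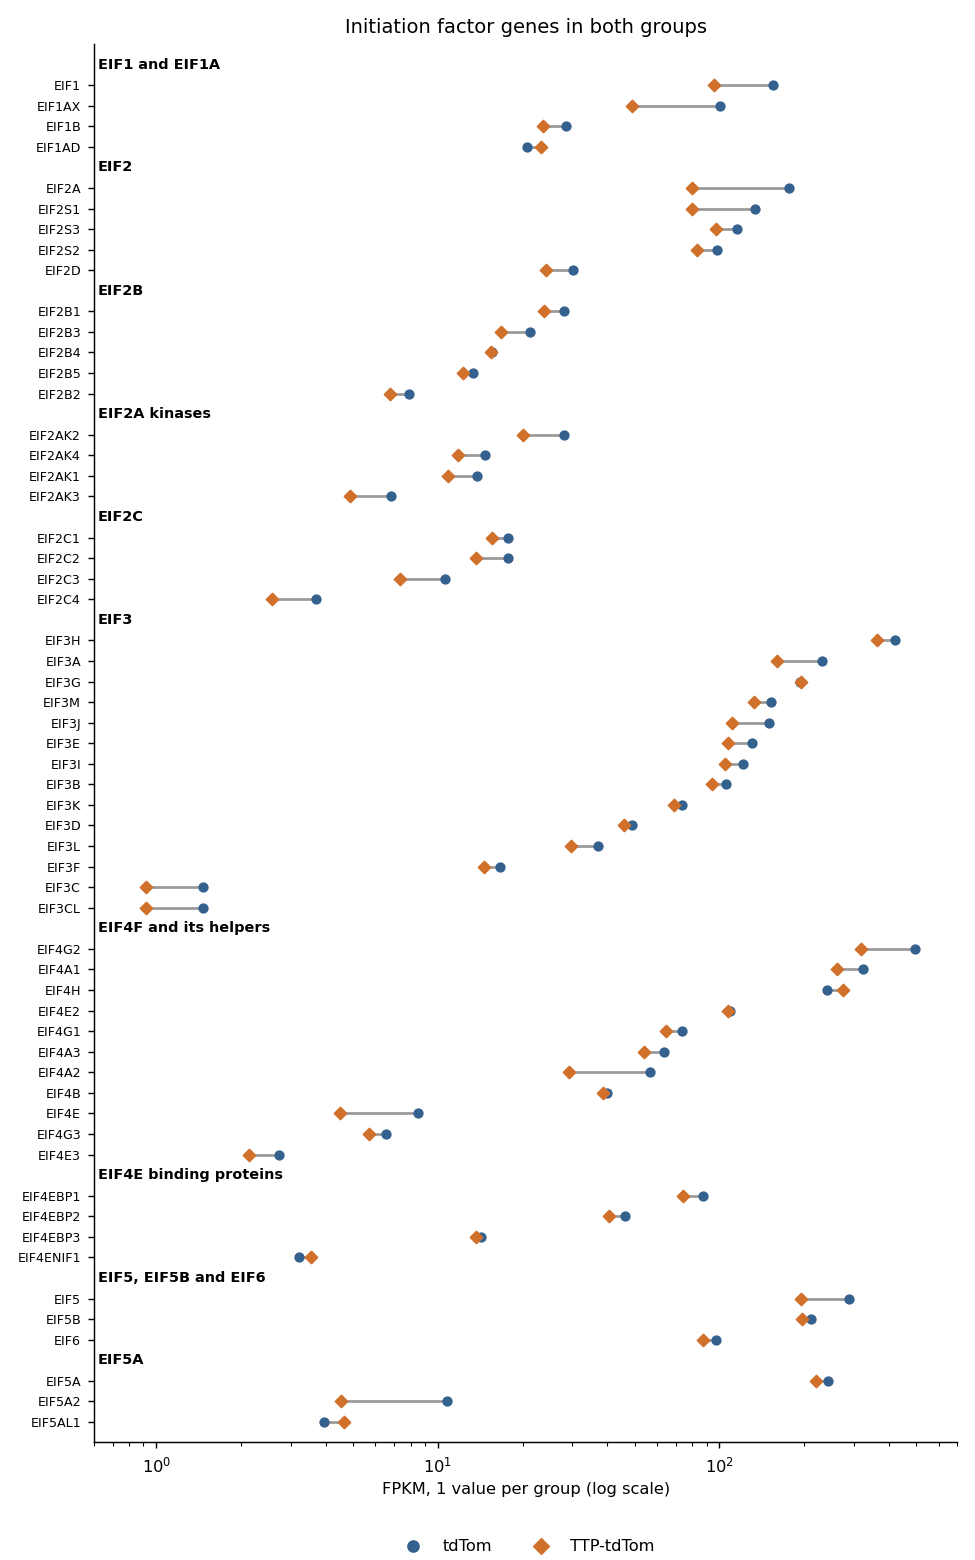
FPKM of the initiation factor genes above 0 in both groups on a log axis, with the tdTom value as a circle, the TTP-tdTom value as a diamond and a grey line between them. Each point is 1 value per group without an error. EIF4G2 is highest at 496 FPKM in the tdTom group, the longest grey lines belong to EIF5A2, EIF2A and EIF1AX, and the values of EIF3G, EIF2B4 and EIF4E2 nearly coincide.

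The highest level in the family belonged to EIF4G2, a relative of the EIF4G scaffold that lacks the site for the cap-binding protein, with 496 FPKM in the tdTom group and 317 FPKM in the TTP-tdTom group. EIF3H followed with 421 FPKM and 363 FPKM. EIF4A1, the main helicase of EIF4F, came next with 323 FPKM and 262 FPKM, although its assembled locus also carries SENP3, CD68 and the TNFSF12 and TNFSF13 genes, whose fragments are part of that value. At the low end of the tdTom group stood EIF3C, EIF4E3, EIF4ENIF1, EIF2C4 and EIF5AL1, all under 5 FPKM. The mean level over both groups hardly ordered the ratios: across the 57 genes Pearson's r between the log2 ratio and the log10 mean FPKM was 0.080, a description over genes of the same libraries, which are not independent.

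The lowest ratio belonged to EIF5A2. EIF5A and EIF5A2 are the factors that carry hypusine, a modified lysine, and they help the ribosome through difficult peptide bonds, although they were first named as initiation factors. EIF5A2, on chromosome 3 of GRCh37 from 170604535 to 170626463, was at 10.8 FPKM in the tdTom group and 4.54 FPKM in the TTP-tdTom group, a log2 ratio of -1.25 with 42.2% of the tdTom level left. Its paralog EIF5A, on chromosome 17 from 7210318 to 7215782, was at 242 FPKM and 221 FPKM, a log2 ratio of -0.13. The coding sequences of the pair were 72.9% identical over 462 aligned bases, and their log2 ratios differed by 1.11. The transcripts differ in GC content, with 34.3% for EIF5A2 and 54.7% for EIF5A. Relative to the medians of coding genes in their GC deciles (described below), EIF5A2 and EIF5A were at -0.48 and -0.018, neither past the fold. EIF5A2 went from 0.0445 to 0.0206 of the EIF5A level. EIF5AL1, an intronless copy of EIF5A with 98.9% identity over 465 bases, was listed at 3.93 FPKM and 4.65 FPKM, and fragments from these coding sequences may have been assigned to either gene, which was not tested.

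EIF2A and EIF2S1 had lower values in the group that includes EIF2. EIF2A is a separate initiator tRNA binding protein for a restricted set of mRNAs and is no subunit of EIF2. EIF2A, on chromosome 3 from 150257608 to 150303973, was at 177 FPKM in the tdTom group and 80.2 FPKM in the TTP-tdTom group, a log2 ratio of -1.14. Its assembled locus overlaps that of SERP1. EIF2S1, the alpha subunit that stress kinases phosphorylate, lies on chromosome 14 from 67827034 to 67853233 and was at 134 FPKM and 80.1 FPKM, a log2 ratio of -0.74. The beta and gamma subunits stayed closer to their tdTom level. EIF2S2 was at 98.0 FPKM and 83.4 FPKM, and EIF2S3 at 115 FPKM and 97.6 FPKM, with log2 ratios of -0.23 and -0.24. The alpha subunit thus went from 1.17 to 0.822 times the level of EIF2S3, while EIF2S2 held 0.851 and 0.855 times that level. After centring EIF2S1 was at -0.50. Relative to the medians of their GC deciles, EIF2S1, EIF2S2 and EIF2S3 were at -0.18, 0.027 and 0.10. On neither scale was EIF2S1 past the fold. EIF2D, which places initiator tRNA without EIF2, had a log2 ratio of -0.32.

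Among the factors of scanning, EIF1 and EIF1AX had lower values and their relatives did not pass the fold. EIF1AX helps the scanning subunit settle on the start codon. EIF1AX, on chromosome X from 20142636 to 20159966, was at 101 FPKM in the tdTom group and 48.9 FPKM in the TTP-tdTom group, a log2 ratio of -1.04 with 48.6% left. EIF1, which guards against wrong start codons, lies on chromosome 17 from 39845127 to 39847898 and was at 154 FPKM and 95.8 FPKM, a log2 ratio of -0.69. After centring EIF1AX and EIF1 were at -0.80 and -0.45, with EIF1 no longer past the fold. Relative to the medians of their GC deciles they were at -0.28 and -0.43, neither past the fold. EIF1B, whose coding sequence was 82.2% identical to that of EIF1, was at 28.5 FPKM and 23.6 FPKM with a log2 ratio of -0.27. The EIF1B locus spans 502613 bases and overlaps MYRIP, so that its value may hold other fragments. EIF1AD, a nuclear protein named for its EIF1A-like domain, was higher in the TTP-tdTom group at 23.2 FPKM against 20.8 FPKM, below the fold.

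Of the 11 genes of EIF4F and its helpers, 3 (27.3%) were at least 1.5-fold lower, against 22.9% of all coding symbols. None was as much higher, against 1.74%. EIF4E, the cap-binding protein, lies on chromosome 4 from 99797515 to 99851786 and was at 8.48 FPKM in the tdTom group and 4.48 FPKM in the TTP-tdTom group, a log2 ratio of -0.92. Its relative EIF4E2, which binds the cap but represses translation in most settings, was at 109 FPKM and 107 FPKM with a log2 ratio of -0.031. EIF4E2 thus stood at 12.9 times the EIF4E level in the tdTom group and at 23.9 times in the TTP-tdTom group. Relative to the medians of their GC deciles, EIF4E and EIF4E2 were at -0.35 and 0.23, neither past the fold. EIF4A2, a paralog of the helicase EIF4A1, lies on chromosome 3 from 186495945 to 186524484 and was at 56.9 FPKM and 29.3 FPKM, a log2 ratio of -0.96, at a locus that overlaps RFC4. EIF4A1, with a coding sequence 76.9% identical to that of EIF4A2, had a log2 ratio of -0.30. EIF4A3, the helicase of the exon junction complex, was at 63.7 FPKM and 53.9 FPKM with a log2 ratio of -0.24. Among the scaffold genes, EIF4G2 lies on chromosome 11 from 10818593 to 10830582 and had a log2 ratio of -0.65. This ratio was -0.41 after centring and -0.31 relative to the median of its GC decile, past the fold on neither scale. Of the scaffolds that bind EIF4E, EIF4G1 was at 73.5 FPKM and 64.6 FPKM (-0.19) and EIF4G3 at 6.55 FPKM and 5.71 FPKM (-0.20). EIF4B and EIF4H, cofactors of the helicase, were at 40.0 FPKM and 38.7 FPKM and at 240.2 FPKM and 276 FPKM, so that EIF4H was one of the 5 members with a higher value in the TTP-tdTom group.

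The EIF4E binding proteins hold the cap-binding protein away from EIF4G, and none of these 4 genes passed the fold, against 22.9% lower and 1.74% higher of all coding symbols. EIF4EBP1 was at 87.4 FPKM in the tdTom group and 74.2 FPKM in the TTP-tdTom group, and EIF4EBP2 at 46.3 FPKM and 40.5 FPKM. The sum of these EIF4E inhibitors was 15.8 times the EIF4E level in the tdTom group and 25.6 times in the TTP-tdTom group, a ratio of mRNA levels that says nothing of the proteins. EIF4EBP3 was listed at 14.3 FPKM and 13.6 FPKM, at a locus that also carries ANKHD1 and the ANKHD1-EIF4EBP3 readthrough gene. EIF4ENIF1, which carries EIF4E into the nucleus and to P-bodies, was at 3.21 FPKM and 3.56 FPKM.

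**Figure D2:**
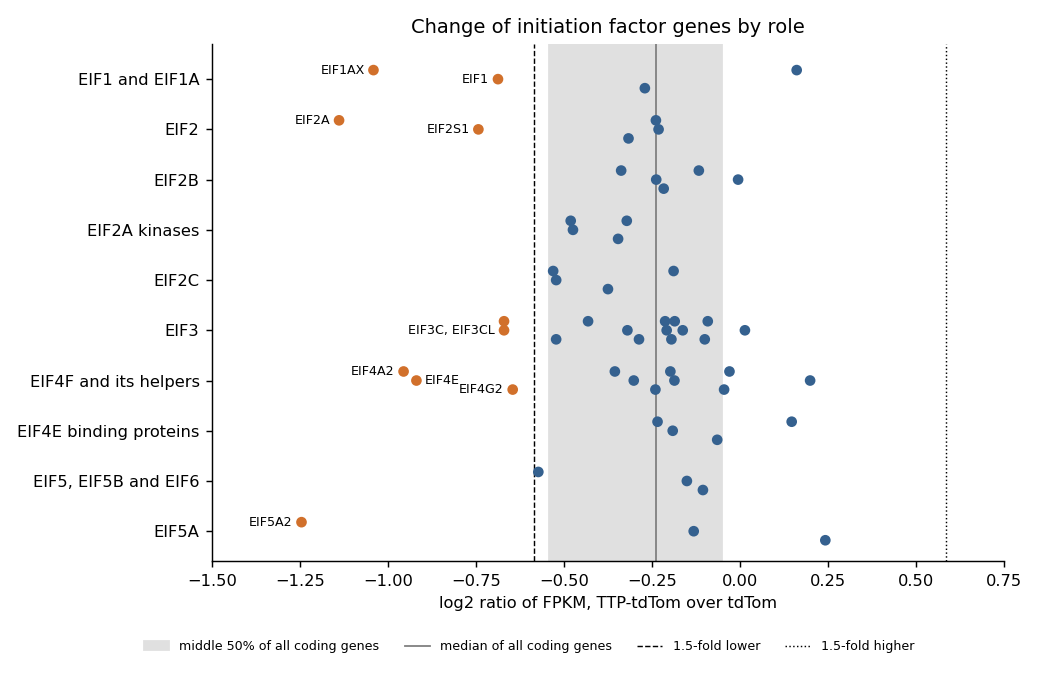
Log2 ratio of FPKM, TTP-tdTom over tdTom, for the 57 initiation factor genes with a mean of at least 1 FPKM, 1 point per gene, by role. Orange points are at least 1.5-fold lower (dashed line), the grey band is the middle 50% of the 11616 coding genes and the grey line is their median of -0.24; most points lie in the band and 10 lie left of the dashed line.

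EIF3 is the largest initiation factor. Its 14 genes had a median log2 ratio of -0.21, beside -0.24 for all coding symbols, and 2 of them (14.3%) were past the fold to the lower side, against 22.9%. These 2 were EIF3C and EIF3CL, which are near-identical copies (100% of 2742 aligned coding bases) and share 1 assembled locus on chromosome 16 from 28699879 to 28747053. That locus was listed at 1.46 FPKM in the tdTom group and 0.919 FPKM in the TTP-tdTom group, and the second copy of the pair, at another locus, at 0.645 FPKM and 0.318 FPKM. All other EIF3 subunits had at least 14.6 FPKM in both groups, so that the values of EIF3C and EIF3CL, whose fragments match 2 places, are uncertain in level and ratio. Without the 5 members whose locus carries another gene symbol, 8 of 52 were at least 1.5-fold lower, which is 15.4% against 22.9% of all coding symbols, where shared loci were kept. Among the subunits whose locus carries no other gene symbol, EIF3A, the largest subunit, was lowest with 231 FPKM and 161 FPKM. Its log2 ratio was -0.52, and its locus overlaps that of NANOS1. EIF3J, the loosely bound subunit, was at 149 FPKM and 111 FPKM with a log2 ratio of -0.43, at a locus that overlaps SPG11. EIF3G was at 193 FPKM and 195 FPKM, a log2 ratio of 0.013, at a locus that overlaps PPAN and P2RY11. The remaining subunits EIF3B, EIF3D, EIF3E, EIF3F, EIF3H, EIF3I, EIF3K, EIF3L and EIF3M lay between -0.32 and -0.092.

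None of the 5 EIF2B genes, which encode the exchange factor that reloads EIF2, and none of the 4 EIF2AK kinase genes passed the fold, in sets too small to read this against the 22.9% of all coding symbols that were lower. The EIF2B log2 ratios ran from -0.34 for EIF2B3 to -0.0061 for EIF2B4. EIF2B5, the catalytic subunit, was at 13.4 FPKM and 12.3 FPKM. In the tdTom group the subunits stood between 7.88 FPKM for EIF2B2 and 28.0 FPKM for EIF2B1, although the complex holds the subunits in equal number. The 4 kinases of EIF2S1 lay below the median of all coding genes, while 3 of them (EIF2AK2, EIF2AK3 and EIF2AK4) lay above the median of their GC decile, by 0.086, 0.093 and 0.019. EIF2AK2, the kinase PKR that senses double-stranded RNA, was at 28.0 FPKM and 20.1 FPKM, a log2 ratio of -0.48. EIF2AK3, the kinase PERK of the endoplasmic reticulum, was at 6.81 FPKM and 4.90 FPKM, also -0.48. EIF2AK1 and EIF2AK4, which respond to heme shortage and to uncharged tRNA, had log2 ratios of -0.35 and -0.32.

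The rule by symbol also takes in EIF2C1 to EIF2C4, the older names of the Argonaute genes AGO1 to AGO4, which load microRNAs and are no initiation factors. They ran from 17.8 FPKM for EIF2C1 to 3.69 FPKM for EIF2C4 in the tdTom group. Their log2 ratios were -0.19, -0.38, -0.53 and -0.52 in the order of their numbers, and none of the 4 passed the fold, against 22.9% lower of all coding symbols. For the last steps, EIF5, which makes EIF2 hydrolyse its GTP, was just outside the fold with 289 FPKM in the tdTom group and 194 FPKM in the TTP-tdTom group, 67.2% left. EIF5B, which joins the subunits, was at 212 FPKM and 197 FPKM, and EIF6, which keeps the large subunit apart, at 97.3 FPKM and 87.6 FPKM at a locus shared with FAM83C. Nearest to the fold on its inner side was EIF4G2 with 63.9% left, and after EIF5 the next outside were EIF2C3 with 69.2% (10.6 FPKM and 7.32 FPKM) and EIF3A with 69.6%.

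TTP is known to bind UAUUUAU in 3′UTRs, so this heptamer was sought in each gene's longest 3′UTR (GENCODE release 29, build GRCh38, TATTTAT in DNA letters on the transcript strand). A match is a description of the letters and not a binding site. The assembled loci that gave the FPKM values stand on GRCh37 and may end before the longest 3′UTR does. Whether a heptamer lies within the measured transcripts was not tested. The heptamer was present in 22 of the 57 initiation factor genes, which is 38.6%, and in 36.2% of the 11473 coding symbols with a 3′UTR. It was present in 6 of the 10 genes past the fold (EIF5A2, EIF2A, EIF1AX, EIF4A2, EIF4E and EIF1) and in 16 of the other 47. Of the members with the heptamer 27.3% were past the fold, against 39.4% of all coding symbols with it, and of those without it 11.4%, against 13.6%. The median log2 ratio was -0.45 for the 22 genes with the heptamer and -0.21 for the 35 without it, and over all coding symbols these medians were -0.45 and -0.17. The gap between these medians was thus of like size in the family and across all coding symbols.

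The sites of the genes past the fold with the lowest ratios are shown with 10 bases on either side, and the capitals mark the heptamer. EIF5A2 carries 6 of them, more than any other gene past the fold.
EIF5A2 site 1: taaatagtaaTATTTATcagtaaatac
EIF5A2 site 2: gacattaatgTATTTATtaaacaaaaa
EIF5A2 site 3: tggcaaacgcTATTTATgcataaatat
EIF5A2 site 4: tagaacatttTATTTATactgtgaaga
EIF5A2 site 5: caggttattgTATTTATatgaagtccc
EIF5A2 site 6: tttgaggagtTATTTATtgtggttaat
EIF2A site 1: attaaattgaTATTTATatcttgcatc
EIF1AX site 1: gggtaagtttTATTTATactctttgga
EIF4A2 site 1: tttggtattgTATTTATtcaataaagt
EIF4E site 3: tttttattttTATTTATttatcttttt
The heptamers of EIF5A2 lie on the minus strand between chr3:170892474-170892480 (site 1) and chr3:170888878-170888884 (site 6) of GRCh38, from 880 to 4476 bases after the stop codon in a 3′UTR of 4945 bases. That of EIF2A is at chr3:150584086-150584092 on the plus strand, that of EIF1AX at chrX:20125443-20125449 on the minus strand and that of EIF4A2 at chr3:186789735-186789741 on the plus strand. The EIF4E heptamer shown is the third of 4, at chr4:98873807-98873813 on the minus strand, 7215 bases after the stop codon in a 3′UTR of 9344 bases, and the fourth, at chr4:98873803-98873809, overlaps it and stands partly in lower case in that line. The longer form TTATTTATT, which contains the heptamer, was present in site 6 of EIF5A2 and site 3 of EIF4E, and in 6 of the 57 genes in all, which is 10.5% against 9.47% of all coding symbols.

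EIF5B and EIF3M, which did not pass the fold, carry the heptamer too, and their sites, chosen after their values were seen, are shown for comparison.
EIF5B site 1: aatacttcttTATTTATgcatattctt
EIF5B site 2: tctctggtaaTATTTATgtaactttta
EIF3M site 1: tctttgttcaTATTTATctgattggct
These lie at chr2:99399835-99399841, chr2:99401238-99401244 and chr11:32605335-32605341 of GRCh38, all on the plus strand. EIF5B had 92.9% of its tdTom level left in the TTP-tdTom group and EIF3M 87.3%. EIF2C2 with 7 copies and EIF2C3 with 6 had 77.1% and 69.2% left. EIF4G2 and EIF2S1, past the fold, carry 0 copies.

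The GC content of the transcript moved with the ratio as well. Across the 57 genes Pearson's r between the log2 ratio and GC content was 0.50 and Spearman's rho 0.52, and across the 11473 coding symbols they were 0.39 and 0.49; these describe genes of the same libraries, which are not independent. EIF5A2 and EIF1AX had the lowest GC content of the 57 at 34.3% and 35.1%. Of the 36 members in the lower 5 deciles of GC content (up to 47.8%), 8 were at least 1.5-fold lower, against 38.8% of all coding symbols in those deciles. Of the 21 members in the upper 5 deciles 2 were, EIF3C and EIF3CL, against 6.97% of all coding symbols there. Genes with the heptamer were also poorer in GC, with a median of 40.6% against 49.6% for the members without it. Within the lower 5 deciles, 6 of 19 members with the heptamer were past the fold (median log2 ratio -0.48) and 2 of 17 without it (-0.24). Over all coding symbols in those deciles the shares were 49.5% with the heptamer (median -0.58) and 27.6% without it (-0.33), and GC content still differed within them, with medians of 40.6% and 42.7%.

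**Figure D3:**
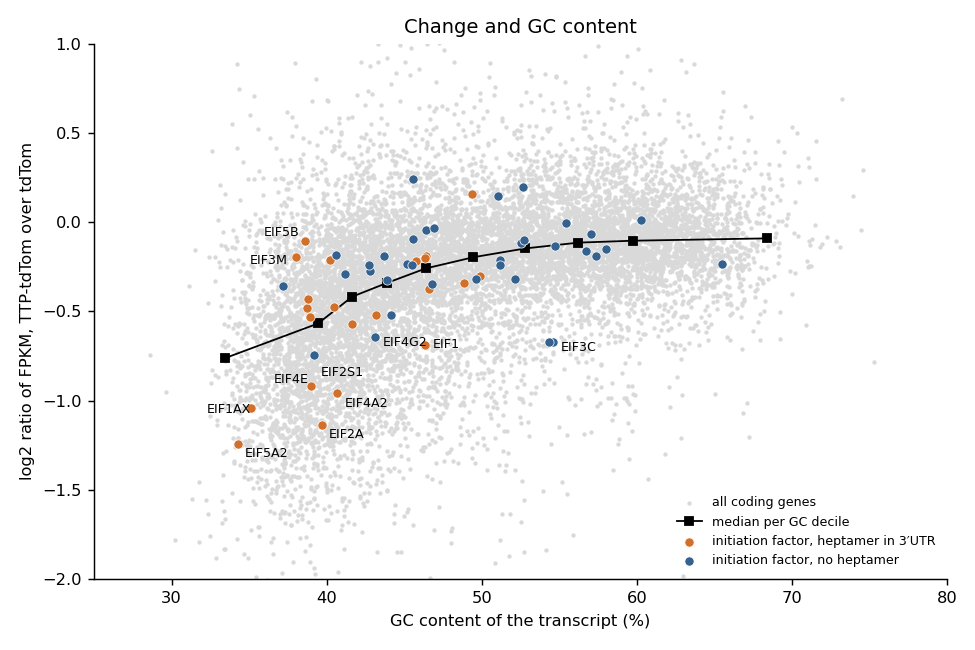
Log2 ratio of FPKM, TTP-tdTom over tdTom, against the GC content of the transcript with the longest 3′UTR in percent, 1 point per gene, for all coding genes (grey; points beyond the axis limits are not drawn) and for the initiation factors with (orange) and without (blue) the heptamer. The black line joins the medians of the GC deciles, which run from -0.76 in the lowest to -0.090 in the highest; EIF5A2, EIF1AX and EIF2A lie at the low left and EIF5B and EIF3M above the line.

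Each member was also set against the median of its own GC decile, a comparison added after the data were seen. No member was then 1.5-fold lower, while 7.3% of all coding symbols were still at least 1.5-fold lower. None was 1.5-fold higher either, and the share of all coding symbols that were higher on this scale is not given here. The lowest values on this scale were -0.57 for EIF2A, -0.56 for EIF3C, -0.54 for EIF4A2, -0.52 for EIF3CL and -0.48 for EIF5A2. EIF1AX, at -1.04 on the plain ratio, was at -0.28. At the other end EIF3M stood 0.57 and EIF5B 0.46 above the median of genes with like GC content, as did EIF5AL1 with 0.50. The part of GC content, or of a bias in sequencing that depends on it, in these ratios was not tested.

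Many mRNAs of the translation machinery begin with a C and a run of pyrimidines at the cap, a 5′ terminal oligopyrimidine (TOP) tract, through which growth signals control them. A start with C followed by at least 4 of C or T was sought on the transcript strand at the RefSeq transcript starts (build GRCh38.p14), where 47 of the 57 genes had an entry. It was present in 9 of the 47, or 19.1%, in 7.51% of the coding symbols with an entry and in 74.6% of the 63 ribosomal protein genes with one. Each is shown from 5 bases before to 15 bases from the start on, with the pyrimidine run in capitals, since the group holds both lowered and steady members.
EIF2A: ggtttCTCTTTCCgggacaa
EIF4A2: gctgtCTTTTCagtcgggcg
EIF2D: cgggcCCTTTTCgcggccgg
EIF2S3: ccttcCTCTTTTggcaacat
EIF3D: gtttcCTCTTTTCCTggttt
EIF3F: gcctcCTTCTTTCTCgacaa
EIF3K: accacCTCTTCCTgttcccg
EIF3M: gttccCTTTTCCggtcggcg
EIF4B: cgggtCTTTTgcgttctctt
EIF2A and EIF4A2, at chr3:150546782-150546801 and chr3:186783572-186783591 on the plus strand, were past the fold, which is 22.2% of the 9 against 19.7% of all coding symbols with such a start, and the log2 ratios of the other 7 lay between -0.32 and -0.046. The median of the 9 was -0.20, against -0.24 for the 38 members without such a start, and over all coding symbols these medians were -0.22 and -0.25.

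The rest of the translation machinery was described with gene lists. Of the 47 large subunit ribosomal protein genes with a mean of at least 1 FPKM, 0 passed the fold of 1.5 in either direction, against 22.9% lower and 1.74% higher of all coding symbols, and the median log2 ratio was -0.11, against -0.24. They lay between -0.36 and 0.084. The small subunit genes are not described here. Of 57 further genes of translation that had a mean of at least 1 FPKM, 9 were at least 1.5-fold lower and 1 was higher, with a median log2 ratio of -0.24. These shares, 15.8% and 1.75%, lay beside 22.9% and 1.74% of all coding symbols, so that the lists together held no larger share of such genes, and those named below are given as values only.

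**Figure D4:**
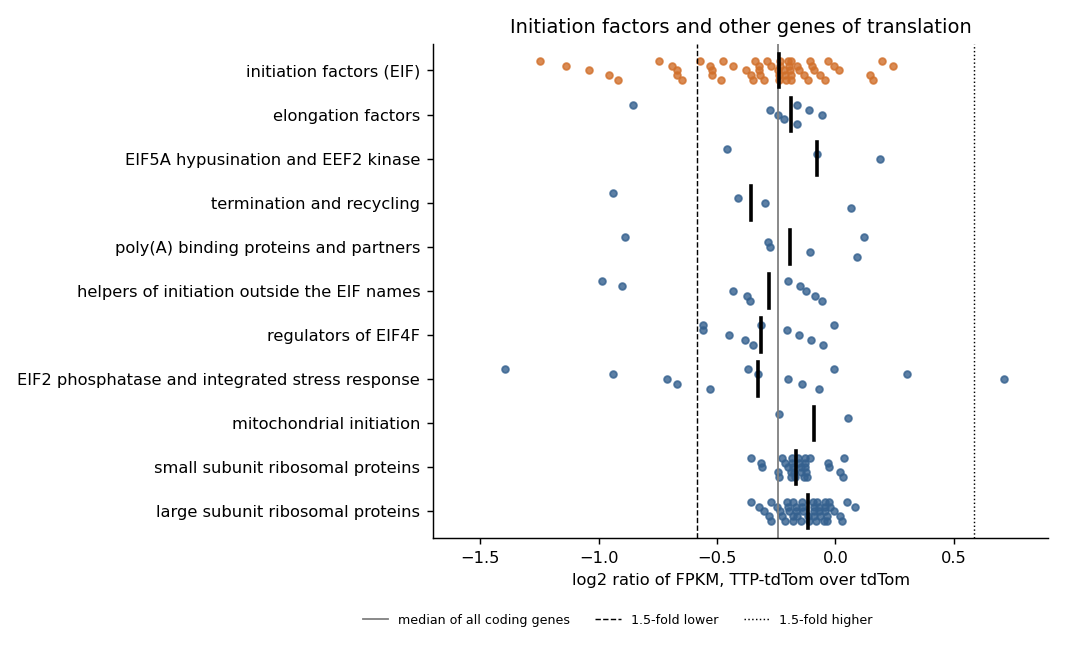
Log2 ratio of FPKM, TTP-tdTom over tdTom, for the initiation factors (orange) and the genes of each list of translation genes (blue), 1 point per gene with a mean of at least 1 FPKM, with the list's median as a black bar. Points beyond the axis limits are not drawn but count in the medians. Large subunit ribosomal proteins crowd between -0.36 and 0.084, and the initiation factors spread down to -1.25.

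The genes past the fold in those lists had the following values. DDX3X, a helicase that opens structured leaders, was at 38.8 FPKM in the tdTom group and 19.6 FPKM in the TTP-tdTom group, a log2 ratio of -0.98. DENR, which with MCTS1 recycles the small subunit, was at 78.1 FPKM and 41.8 FPKM, while MCTS1 had a log2 ratio of -0.15. ABCE1, the ATPase that splits ribosomes after termination, was at 53.3 FPKM and 27.8 FPKM. PAIP1, which links poly(A) binding protein to EIF4A and EIF3, was at 30.0 FPKM and 16.2 FPKM. PABPC1 itself had a log2 ratio of -0.28. Of the 8 elongation factor genes listed 1 (12.5%, against 22.9%) was past the fold, EEF1E1, a scaffold of the tRNA synthetase complex at a locus with 3 symbols, with a log2 ratio of -0.86. EEF1A1 and EEF2, the main elongation factors, had log2 ratios of -0.16 and -0.22.

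In the list of the EIF2 phosphatase and the integrated stress response, 4 of 13 genes were past the fold to the lower side, which is 30.8% against 22.9% of all coding symbols. NCK1, an adaptor that can bring the phosphatase to EIF2, was at 21.1 FPKM in the tdTom group and 8.03 FPKM in the TTP-tdTom group, a log2 ratio of -1.39. PPP1R15B, the constitutive targeting subunit of that phosphatase, was at 27.7 FPKM and 14.4 FPKM. IMPACT, an inhibitor of EIF2AK4, and PPP1CB, a catalytic subunit, had log2 ratios of -0.71 and -0.67. Relative to the medians of their GC deciles, IMPACT and PPP1CB were at 0.050 and 0.092, while NCK1 and PPP1R15B were at -0.63 and -0.60. The stress-induced targeting subunit PPP1R15A was at 11.6 FPKM and 11.5 FPKM. ATF4, the transcription factor whose translation rises when EIF2S1 is phosphorylated, was at 43.4 FPKM and 37.9 FPKM at a locus with 2 symbols, and its target genes ASNS, DDIT3 and TRIB3 had log2 ratios of -0.14, -0.37 and -0.33. CHAC1, another target, was at 1.07 FPKM and 1.32 FPKM, a log2 ratio of 0.30. ATF3 was at 0.773 FPKM and 1.27 FPKM, the 1 gene on the higher side of the fold, at levels near the minimum used here. None of the 11 regulators of EIF4F reached the fold, against 22.9% lower and 1.74% higher of all coding symbols, and the lowest were LARP1, which binds TOP mRNAs, at -0.56 and RPS6KB1, the S6 kinase, at -0.56. Relative to the medians of their GC deciles, LARP1 was at -0.41 and RPS6KB1 at 0.20.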

How the data were processed

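The authors sequenced RNA from 6 samples, 3 per group. Strand-specific paired-end libraries were aligned with TopHat2 (version 2.0.13) to Hs37D5, which is GRCh37 with decoy sequence, and loci were assembled and compared with Cufflinks (version 2.2.1), per the labels and the methods. The deposited table gives 1 FPKM per group at each of 406165 loci; FPKM is the authors' value, scaled to transcript length and library size. Columns with the authors' own fold changes, statistics and p-values were not used. The study states a target depth per library; the depth reached is not in the table, and no interval or replicate error can be given.

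Log2 ratios were computed here without a pseudocount for coding symbols with a mean of at least 1 FPKM, and called past a fold of 1.5; starts of loci are counted from 1. Members and gene lists were chosen with earlier results of these data known. All members were named by role, with both values given for those past the fold or near it, the highest and their paralogs; of the gene lists, those past the fold were named, and others beside them were chosen after their values were seen. The 3′UTR and GC content come from GENCODE release 29 (longest 3′UTR per gene) and transcript starts from RefSeq; older symbols were matched by synonym. Alternatives were other folds, filters, pseudocounts, scalings and loci. The functions were tested on simulated data. Python 3.11.15, numpy 2.4.6, pandas 2.3.3, scipy 1.17.1 and matplotlib 3.10.9 were used. Some genes of the lists are not reported here.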

Additional observations from a re-analysis of the deposited data

Results flagged for a closer look

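A second entry of EIF3E at the coordinates of the one used was left out of the comparison and was listed at 3.06 FPKM in the TTP-tdTom group against 0.26 FPKM in the tdTom group, so it stood out for a signal above the control group. The entry used for EIF3E had 107 FPKM and 130.4 FPKM. A second entry of EIF2D was likewise listed at 1.11 FPKM against 0.705 FPKM, while another entry of that gene had 0.837 FPKM and 1.42 FPKM. These EIF2D values lie around the minimum mean of 1 FPKM used here. Other entries left out went both ways, and that of EIF4ENIF1 was at 0.173 FPKM against 0.483 FPKM. No replicate values bear on these entries, and the cause of their differences was not tested.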

How the results depend on the processing

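No paired analysis was possible because each group has a single value, and no replicate could be left out either. The number of initiation factor genes at least 1.5-fold lower, 10 of 57, was 22 at a log2 difference of 0.32 and 3 at a fold of 2 (background 40.6% and 8.26%). It was 5 after centring on the median of coding symbols (EIF1AX, EIF2A, EIF4A2, EIF4E and EIF5A2; background 13.2%) and 0 relative to the GC decile, a setting added after the data were seen. The other settings gave 8 or 10. They were the same FPKM sum over loci with a symbol, no filter, a mean of at least 5 FPKM and pseudocounts of 0.1 and 1. Another locus, the sum of loci and, added later, no shared loci were used too. The count was 8 of 51 at a mean of at least 5 FPKM (background 24.98%) and 8 of 57 with a pseudocount of 1 (18.55%). Without shared loci it was 8 of 52, against 22.9% of all coding symbols, where shared loci were kept. The rest gave 10 of 57, with backgrounds from 20.27% with no filter to 22.97% for the locus with the highest FPKM. The number at least 1.5-fold higher was 0 under every setting named here. The median log2 ratio moved from -0.24 to 0.00093 after centring and to 0.027 relative to the GC decile. No ratio of the 10 genes changed sign under these settings, but their size did change. Relative to the GC decile all 10 were weaker, from -0.57 for EIF2A to -0.18 for EIF2S1, which was at -0.74 before. EIF3C and EIF3CL went from -0.67 to -0.36 with a pseudocount of 1. Without depth or replicates, the precision of low values such as that of EIF3C is not known.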
